A study of Rattus norvegicus with 18 samples.

Results

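The CC chemokine ligands followed here are *Ccl2*, *Ccl3*, *Ccl4*, *Ccl5*, *Ccl6*, *Ccl7*, *Ccl17*, *Ccl20*, *Ccl22*, and *Ccl24*. They were chosen by gene symbol from the deposited tables and make up 10 of the 22081 genes listed there. RNA-seq was performed on lung tissue of 18 male F344/DuCrlCrlj rats, in 6 groups of 3, one vehicle control group and one MWCNT-treated group for each of the time points Year 0.5, 1, and 2. The treated rats received MWNT-7, a multiwalled carbon nanotube (MWCNT) of long, stiff fibers, by intratracheal instillation at 0.5 mg/kg of body weight every 4 weeks from 9 weeks of age. The control rats received the same saline and Tween 80 vehicle on the same schedule, so age and duration of dosing rose together in both treatments. The tissue was a small portion of the accessory lobe, from which tumor nodules visible at necropsy had been left out. It is whole tissue that could still contain smaller lesions.

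CC chemokines are small secreted proteins with a pair of adjacent cysteines near the start of the mature chain. They bind to G protein-coupled receptors on leukocytes and direct these cells along a gradient into tissue. In the lung, macrophages, epithelial cells, and lymphocytes are sources of these ligands, and inhaled particles and fibers are known to induce several of them. Different ligands draw different cells, with *Ccl2* and *Ccl7* acting on monocytes, *Ccl3*, *Ccl4*, and *Ccl5* on monocytes and lymphocytes, *Ccl17* and *Ccl22* on Th2 cells and regulatory T cells, *Ccl20* on dendritic cells and Th17 cells, and *Ccl24* on eosinophils.

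*Ccl2* and *Ccl7* showed the largest changes of the 10 ligands at every time point, at between 13.2-fold and 38.1-fold higher in MWCNT-treated rats. *Ccl3* and *Ccl22* were also upregulated at all 3 time points, and *Ccl4* and *Ccl17* at Year 0.5 and Year 1. *Ccl5* was lower in treated rats by 1.90-fold, 1.71-fold, and 2.32-fold at the 3 time points, and at Year 2 it was the single ligand to pass both limits of the test in this direction. *Ccl6*, the most abundant of the 10 in 5 of the 6 groups, was about 1.4-fold higher throughout by the test. No change of *Ccl20* or *Ccl24* passed both limits.

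Total gene counts ranged from 13297643 to 17868851 in control rats and from 14661589 to 21130757 in treated rats. All 10 ligands passed the filter on low counts at every time point. Among the ligands, the lowest counts were those of *Ccl17*, with 2 to 37 per rat, and the highest were those of *Ccl6*, with 5953 to 12826. Levels are given as TPM, a relative abundance of transcripts that corrects for the length of the gene and the depth of the library. Fold changes come from the counts scaled by TMM, the trimmed mean of M values. These scales were not centered alike. The median log2 difference over all genes tested was -0.16, -0.23, and -0.22 on TPM at Years 0.5, 1, and 2, against -0.02, 0.00053, and -0.01 with TMM. The 6 lung epithelial and endothelial markers in the tables, *Sftpc* and *Ager* among them, summed to between 43120 and 63130 TPM in each rat. This sum hides changes of single markers. *Sftpd* was upregulated at each time point, at a log2 fold change of 1.31, 1.44, and 1.90. At Year 2, *Sftpc* was upregulated, at 1.004, and *Cldn5* was downregulated, at -1.41. In whole tissue, fewer cells of a type and less RNA per cell cannot be told apart.

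In the tables, which use the Rnor_6.0 build, 6 of the 10 genes lie on chromosome 10 in separate groups. *Ccl2* (ENSRNOG00000007159, chr10:69412017-69413870, plus strand) is followed after 9215 bases by *Ccl7* (ENSRNOG00000000239, chr10:69423086-69424979, plus strand). The other group, 1314820 bases beyond *Ccl7*, holds *Ccl5* (ENSRNOG00000010906, chr10:70739800-70744315), *Ccl6* (ENSRNOG00000030021, chr10:70797124-70802782), and *Ccl3* (ENSRNOG00000011205, chr10:70869513-70871066) on the minus strand. *Ccl4* (ENSRNOG00000011406, chr10:70884531-70886355) lies 13464 bases past *Ccl3* on the plus strand, so these genes are transcribed away from each other. *Ccl17* (ENSRNOG00000016278, chr19:10619220-10620671) and *Ccl22* (ENSRNOG00000016535, chr19:10674189-10681145) lie 53517 bases apart on the minus strand, with *Cx3cl1*, another chemokine gene, between them. *Ccl20* (ENSRNOG00000015992, chr9:88918433-88921001) and *Ccl24* (ENSRNOG00000031162, chr12:24148567-24152625), both on the plus strand, stand on chromosomes of their own.

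To show what lies before the starts of genes with large, small, and no called changes, the 250 bases upstream of the RefSeq start are printed for *Ccl7* and *Ccl22*, which were upregulated at all 3 time points, for *Ccl6*, and for *Ccl20*. RefSeq promoters were matched by symbol for 6 of the 10 ligands, in the GRCr8 build, whose coordinates differ from those of the tables. The windows are chr10:67513845-67514094 (plus strand) for *Ccl7*, chr19:10270360-10270609 (minus) for *Ccl22*, chr10:68883367-68883616 (minus) for *Ccl6*, and chr9:91836909-91837158 (plus) for *Ccl20*. Capitals mark matches to the kappaB consensus bound by NF-kappaB, to the AP-1 motif TGANTCA, where N is any base, to the STAT6 motif, which is TTC and GAA with 4 bases between them, and to the TATA box TATAAA. All were searched on both strands except the TATA box, which was searched on the sense strand.
Ccl7: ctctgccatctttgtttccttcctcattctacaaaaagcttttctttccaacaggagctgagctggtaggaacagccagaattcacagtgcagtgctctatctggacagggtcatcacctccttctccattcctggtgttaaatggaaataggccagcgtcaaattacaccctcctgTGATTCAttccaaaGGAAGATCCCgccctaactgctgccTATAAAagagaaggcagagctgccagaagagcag
Ccl22: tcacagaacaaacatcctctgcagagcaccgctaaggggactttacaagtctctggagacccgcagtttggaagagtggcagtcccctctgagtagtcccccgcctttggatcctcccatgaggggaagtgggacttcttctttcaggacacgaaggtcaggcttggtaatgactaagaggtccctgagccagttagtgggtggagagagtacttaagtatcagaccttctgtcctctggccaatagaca
Ccl6: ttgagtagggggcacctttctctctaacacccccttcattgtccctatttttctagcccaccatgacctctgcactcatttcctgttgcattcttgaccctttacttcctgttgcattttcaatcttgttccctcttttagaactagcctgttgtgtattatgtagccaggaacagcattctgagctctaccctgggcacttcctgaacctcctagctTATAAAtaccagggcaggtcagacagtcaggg
Ccl20: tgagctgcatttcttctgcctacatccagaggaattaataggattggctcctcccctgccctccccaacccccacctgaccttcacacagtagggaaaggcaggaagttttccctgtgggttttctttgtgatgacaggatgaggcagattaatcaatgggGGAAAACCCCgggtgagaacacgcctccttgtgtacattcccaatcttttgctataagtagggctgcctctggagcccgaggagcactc

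The *Ccl7* window held a TATA box 34 bases, a kappaB match (GGAAGATCCC) 59 bases, and an AP-1 match 73 bases before the start, counted to the first base of each match, and these did not overlap. *Ccl20* held a kappaB match (GGAAAACCCC) 89 bases before its start, *Ccl6* a TATA box 32 bases before, and *Ccl22* none of the 4 motifs. Of the ligands not printed, *Ccl17* held a STAT6 match 68 bases and *Ccl24* a TATA box 65 bases before the start. Over 33469 RefSeq promoter entries of the same length, 8.86% held a kappaB match, 6.34% AP-1, 6.25% STAT6, and 8.06% the TATA box. These matches describe the letters of the windows, and no binding was measured.

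At Year 0.5, 6 of the 10 ligands were upregulated and none was downregulated by the edgeR quasi-likelihood test, that is, with a false discovery rate (FDR) under 0.05 and a log2 fold change beyond 1 in either direction. In the same comparison, 9.1% of 14315 genes tested passed, 6.07% as upregulated and 3.03% as downregulated. At Year 1, 6 were upregulated and none was downregulated, against 10.2% of 14345 genes in either direction, 6.13% upregulated, and 4.09% downregulated. At Year 2, 4 were upregulated and 1, *Ccl5*, was downregulated, against 16.4% of 14361 genes, 8.17% upregulated and 8.22% downregulated. The median log2 fold change of the 10 ligands was 1.73, 1.45, and 0.94 in turn, against -0.02, 0.00053, and -0.01 over all genes tested. On TPM, the 3 treated rats lay entirely above the 3 control rats for 7, 7, and 6 ligands and entirely below for 2, 1, and 1. The same held above for 17%, 15%, and 18.1% of all genes tested, below for 40.7%, 46.8%, and 45.7%, and in either direction for 57.7%, 61.7%, and 63.8%, so that a separation of 3 rats from 3 is common here and is used here only as a description.

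**Figure D1:**
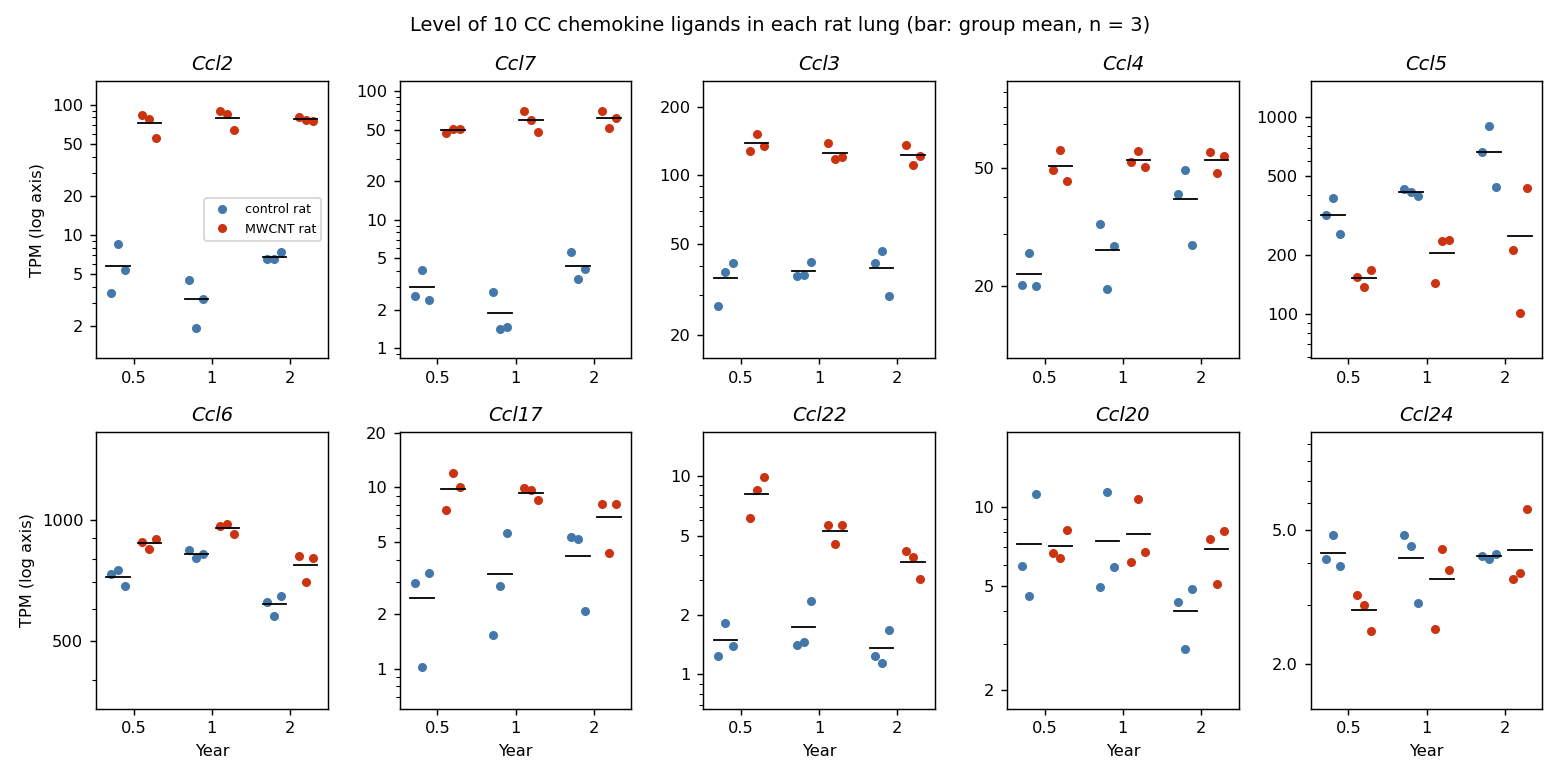
TPM of each ligand (log axis, a separate range in each panel) in every rat, with control rats in blue, MWCNT-treated rats in red, and a bar at the mean of each group of 3. For *Ccl2*, *Ccl7*, *Ccl3*, and *Ccl22* the treated rats lie above all control rats of every time point, while for *Ccl5* they lie below the control rats of the same time point.

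**Figure D2:**
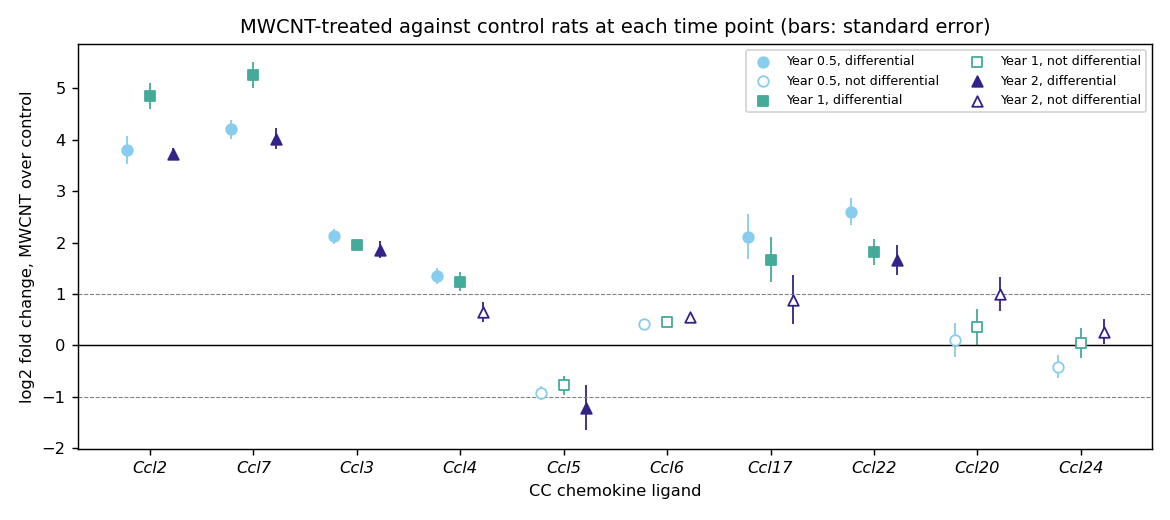
log2 fold change of MWCNT-treated over control rats for each ligand at Year 0.5 (circles), Year 1 (squares), and Year 2 (triangles), with bars for the standard error. Filled symbols passed both limits of the test, the dashed lines mark the fold change limit, and the values run from -1.21 for *Ccl5* at Year 2 to 5.25 for *Ccl7* at Year 1.

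*Ccl2* encodes MCP-1, a ligand of the monocyte receptor Ccr2. Its TPM in control rats was 3.60, 8.46, and 5.34 at Year 0.5, 4.50, 1.93, and 3.25 at Year 1, and 6.50, 6.53, and 7.36 at Year 2. In treated rats it was 83.4, 78.0, and 55.3 at Year 0.5, 89.3, 84.4, and 63.5 at Year 1, and 80.4, 76.1, and 75.3 at Year 2. Every treated rat lay above every control rat, and the lowest treated rat had 55.3 TPM against 8.46 TPM in the highest control rat. This gave a log2 fold change of 3.81 ± 0.27 (SE, FDR 2.2e-05) at Year 0.5, 4.86 ± 0.25 (FDR 3.6e-06) at Year 1, and 3.72 ± 0.12 (FDR 1.56e-07) at Year 2, or 14.0-fold, 29.0-fold, and 13.2-fold. The mean level in treated rats stayed between 72.2 and 79.1 TPM, whereas the mean in control rats went from 3.22 ± 1.28 (SD, n = 3) at Year 1 to 6.80 ± 0.49 at Year 2.

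*Ccl7* encodes MCP-3, which acts on Ccr2 and on other CC receptors. Control rats had 2.55, 4.07, and 2.39 TPM at Year 0.5, 2.72, 1.42, and 1.46 at Year 1, and 5.59, 3.44, and 4.13 at Year 2. Treated rats had 47.3, 51.0, and 51.3 TPM at Year 0.5, 70.9, 60.0, and 48.2 at Year 1, and 70.4, 52.2, and 62.4 at Year 2. Again the treated and control rats did not overlap at any time point. By the test, the log2 fold change was 4.20 ± 0.19 (FDR 3.62e-06), 5.25 ± 0.25 (FDR 2.7e-06), and 4.02 ± 0.21 (FDR 1.53e-06), or 18.4-fold, 38.1-fold, and 16.2-fold. The fold rests on low counts in control rats, from 9 to 35 per rat, against 321 to 497 in treated rats.

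Across the 18 rats, *Ccl2* and *Ccl7* were the most alike of all pairs of the 10 ligands, with a root mean square difference of 0.29 in log2 CPM after centering each gene on its mean. Of 14029 genes outside the lists, *Ctsk*, the gene of the protease cathepsin K, was the closest to both, at 0.52 for *Ccl2* and 0.48 for *Ccl7*. *Slamf9*, a receptor of the SLAM family, followed for *Ccl2* at 0.58, and *Cxcl6*, a CXC chemokine, for *Ccl7* at 0.56. Since most of the variation of these genes is the difference between treatments, the measure mainly ranks genes by the size of that difference.

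Markers of macrophages moved with these ligands. Of 8 macrophage markers, 6, 5, and 7 were upregulated at Years 0.5, 1, and 2, and none was downregulated, with *Cd68* at a log2 fold change of 2.44, 2.50, and 3.03. Their summed TPM ranged from 309 to 339, 373 to 382, and 303 to 355 in control rats, and from 763 to 878, 818 to 939, and 1026 to 1107 in treated rats. Per 100 TPM of these markers, control rats had 0.50 to 2.49 TPM of *Ccl2* and treated rats 7.25 to 10.9, and for *Ccl7* the ranges were 0.37 to 1.85 and 4.99 to 8.66. *Ccl2* and *Ccl7* were therefore higher in treated rats also relative to the marker sum, without overlap. Of the 4 monocyte markers in the tables, 1 was upregulated at each time point. The part of these cells in the changes was not tested.

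Markers of other cells also differed between treatments at the same time points. Of 5 mast cell markers, 2, 4, and 4 were upregulated, with *Cpa3*, a mast cell protease, at a log2 fold change of 2.33, 3.91, and 5.30, while *Kit* was downregulated at Year 0.5 and Year 2. The mast cell sum, which includes *Kit*, was 101 to 124 TPM in control rats and 255 to 313 TPM in treated rats at Year 2, overlapped at Year 1, and was lower in treated rats at Year 0.5, at 66.4 to 73.5 TPM against 90.7 to 152 TPM. Of 6 neutrophil markers, *S100a9* was upregulated at each time point, at 1.39, 2.36, and 2.21, and *S100a8* at Year 1 and Year 2. *Csf3r*, at -0.06, -0.14, and -0.17, and *Cxcr2*, at 0.06, 0.35, and 0.38, were not called at any time point. *Mpo* and *Elane* had at most 8 counts in every rat. The neutrophil sum, which includes *S100a8* and *S100a9*, was 231.5 to 354 TPM in control rats and 617 to 1131 TPM in treated rats at Year 2. Of 4 B cell markers, 2 were downregulated at Year 0.5 and 1, *Cd79b*, at Year 2, at -1.67, and their sum was 38.3 to 49.1 TPM in control rats and 12.2 to 35.6 TPM in treated rats at Year 2. Of 6 heart muscle genes, 4, 1, and 1 were downregulated, with *Myl2* at -3.96 at Year 1, and their sum at Year 2 was 67.9 to 452.5 TPM in control rats and 40.2 to 80.4 TPM in treated rats. The part of these cells or tissues in the changes of the ligands was not tested.

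*Ccl3* encodes MIP-1α, a ligand of Ccr1. Its TPM was 26.8, 37.7, and 41.4 in control rats and 128, 152, and 135 in treated rats at Year 0.5, and 36.1, 36.5, and 41.6 against 139, 118, and 119.8 at Year 1. At Year 2, the control rats had 41.3, 46.4, and 29.6 TPM and the treated rats 136, 111, and 121. The control rats never reached the lowest treated rat. In log2 fold change this was 2.12 ± 0.15 (SE, FDR 2.2e-05), 1.96 ± 0.10 (FDR 3.03e-06), and 1.86 ± 0.16 (FDR 2.2e-05), that is 4.35-fold, 3.88-fold, and 3.64-fold. Per 100 TPM of macrophage markers, *Ccl3* was also apart at Year 0.5, at 8.68 to 12.6 TPM in control rats and 15.7 to 17.7 TPM in treated rats, and at Year 1, at 9.50 to 11.2 TPM against 12.6 to 17.0 TPM. At Year 2 the ranges of this ratio overlapped, at 8.33 to 14.7 TPM against 10.6 to 12.3 TPM. *Fam111a*, a protease gene, and *Clec5a*, a lectin receptor of myeloid cells, had the profiles closest to *Ccl3*, both with a root mean square difference of 0.23 in log2 CPM.

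*Ccl4* encodes MIP-1β, which acts on monocytes and lymphocytes. Control rats had 20.2, 25.8, and 20.1 TPM at Year 0.5, 32.5, 19.6, and 27.4 at Year 1, and 40.9, 49.1, and 27.6 at Year 2. Treated rats had 49.0, 57.4, and 45.1 TPM, then 52.1, 56.7, and 50.1, then 56.3, 48.2, and 54.9. At Year 2 the highest control rat lay inside the range of the treated rats, while at the earlier time points the groups were apart. On the TMM scale of the test the treated rats lay above the control rats at Year 2 as well. The difference was 1.35 ± 0.16 (SE, FDR 0.000284) on the log2 scale at Year 0.5 and 1.24 ± 0.19 (FDR 0.000966) at Year 1. At Year 2 it was 0.65 ± 0.20 (FDR 0.0214), below the fold change limit. The mean of the treated rats was between 50.5 and 53.1 TPM throughout, and that of the control rats was 22.1, 26.5, and 39.2 TPM. In the control rats, the difference from Year 0.5 to Year 2 had a log2 fold change of 0.84 ± 0.21 (FDR 0.0255), which did not reach the fold change limit either.

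*Ccl5* encodes RANTES, a ligand of Ccr1 and Ccr3 that T cells and NK cells make in large amounts. Control rats had 317, 387, and 254 TPM at Year 0.5, 430.2, 418, and 395 at Year 1, and 663, 898, and 442 at Year 2. Treated rats had 155, 137, and 166 TPM at Year 0.5, 144, 234, and 237 at Year 1, and 212, 101, and 435 at Year 2. The treated rats lay below the control rats at each time point, but at Year 2 the highest treated rat, at 435 TPM, came close to the lowest control rat, at 442 TPM. On the TMM scale these rats overlapped.

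The log2 fold change of *Ccl5* was -0.92 ± 0.14 (SE, FDR 0.00122) at Year 0.5 and -0.78 ± 0.18 (FDR 0.00867) at Year 1, and neither reached the fold change limit. At Year 2 it was -1.21 ± 0.44 (FDR 0.0461, 95% interval -2.21 to -0.22). This call was lost with DESeq2 (FDR 0.0998), and without control replicate 1 (FDR 0.105), control replicate 2 (FDR 0.151), MWCNT replicate 1 (FDR 0.12), or MWCNT replicate 2 (FDR 0.0789). The mean of the 3 within-year differences in one model of all 18 rats, added after the data were seen, was -0.97 ± 0.21 (FDR 0.000577), or 1.96-fold lower. This was short of the fold change limit, so *Ccl5* was not called. Of 14843 genes, 13.4% passed both limits, 7.72% upregulated and 5.67% downregulated. With library size only (-1.11) and with limma on log2(TPM + 1) (-1.23), *Ccl5* passed both. Leaving out each rat in turn kept the mean between -1.19 and -0.84, with FDR values up to 0.00166, and took it past the limit for 5 of the 18 rats.

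The NK cell markers *Ncr1*, *Nkg7*, *Klrd1*, *Gzmm*, and *Prf1* moved with *Ccl5*. None of the 5 passed both limits at Year 0.5 or Year 1, and *Klrd1*, *Gzmm*, and *Prf1* were downregulated at Year 2, with log2 fold changes of -1.67, -1.23, and -1.46. Their summed TPM in control rats was 175, 221.5, and 159 at Year 0.5, 269, 220.0, and 228 at Year 1, and 338, 469, and 225 at Year 2. In treated rats it was 112, 77.4, and 95.3, then 103, 125, and 139, then 93.7, 56.8, and 221.

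The control rat with 898 TPM of *Ccl5* had the highest marker sum of all 18, and the treated rat with 101 TPM of *Ccl5* the lowest. Per 100 TPM of NK cell markers, *Ccl5* ranged from 159 to 197 TPM over the 9 control rats and from 138 to 226 TPM over the 9 treated rats, with medians of 181 and 177. These ranges overlapped, as did those of *Ccl5* TPM over the same rats, at 254 to 898 TPM and 101 to 435 TPM. Within each time point the ranges of the ratio overlapped as well, while those of *Ccl5* TPM did not, at Year 2 by a narrow margin. Among 6 genes listed as T cell markers, *Cd3d*, *Cd3e*, *Cd3g*, *Cd8a*, and *Cd247* were downregulated at Year 2. *Cd4* was upregulated at all 3 time points, at 1.17, 1.18, and 1.81, the same direction as the macrophage markers. With *Cd4* included, the sum of the list at Year 2 was 231 to 263 TPM in control rats and 239 to 268 TPM in treated rats. It did not show the lower levels of the other 5 markers and is not read here as a measure of T cells. Per 100 TPM of this sum, *Ccl5* was lower in treated rats without overlap at each time point. It ranged from 147 to 193 TPM in control rats and from 69.6 to 96.8 TPM in treated rats at Year 0.5. At Year 1 the ranges were 200 to 212 TPM and 83.9 to 129 TPM. At Year 2 they were 192 to 341.5 TPM and 40.3 to 182 TPM. The part of NK cells or T cells in the change of *Ccl5* was not tested.

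**Figure D3:**
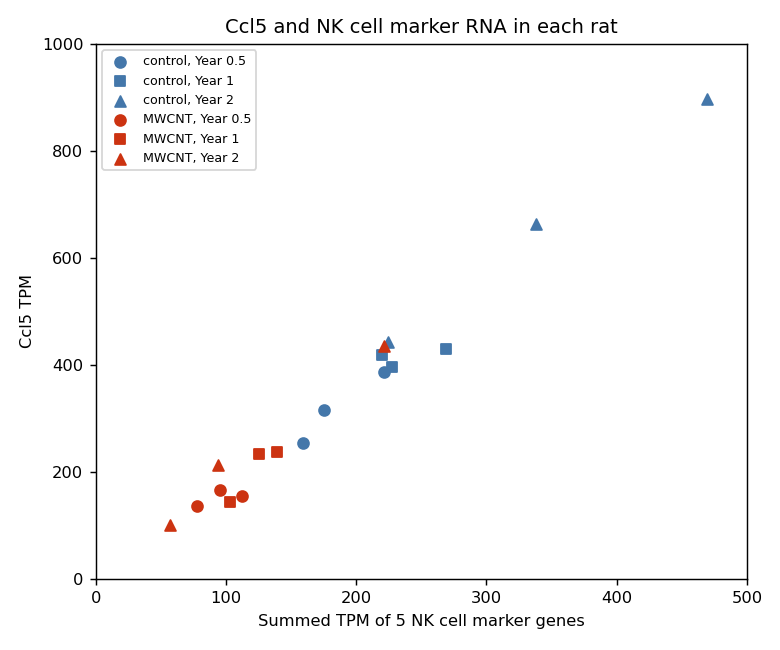
*Ccl5* TPM (vertical) against the summed TPM of 5 NK cell markers (horizontal) in each of 18 rats, control in blue and MWCNT-treated in red, with circles, squares, and triangles for Years 0.5, 1, and 2. The points of both treatments lie along one band, from 56.8 and 101 TPM in a treated Year 2 rat to 469 and 898 TPM in a control Year 2 rat.

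*Ccl6* encodes a chemokine of rodents that macrophages make in quantity without stimulation. It had the highest mean level of the 10 ligands in every group except the Year 2 control rats, in which its range overlapped with that of *Ccl5*. Control rats had 732, 751, and 684 TPM at Year 0.5, 842, 806, and 824 at Year 1, and 624, 576, and 648 at Year 2. Treated rats had 882, 849, and 898 TPM, then 968, 976, and 923, then 814, 701, and 804, so the groups were apart at each time point. The differences were small and even, with log2 fold changes of 0.42 ± 0.06 (SE, FDR 0.000995), 0.45 ± 0.08 (FDR 0.00254), and 0.54 ± 0.09 (FDR 0.00132). All 3 passed the FDR and none passed the fold change limit. As ratios of mean TPM the differences were smaller, at 1.21, 1.16, and 1.255, so their size depends on the scale.

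Per 100 TPM of macrophage markers, the order of *Ccl6* turned around, with 183 to 237 TPM in control rats and 67.0 to 118 TPM in treated rats. Of the 10 ligands, *Ccl6* made up a mean of 64.5% ± 2.88 (SD, n = 3) of the summed TPM in control rats and 64.1% ± 1.21 in treated rats at Year 0.5. At Year 1 these shares were 62.2% ± 0.62 and 63.6% ± 1.33, and at Year 2 they were 45.4% ± 9.59 and 57.6% ± 6.24.

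The remainder was made up differently in the 2 treatments. *Ccl5* accounted for 28.2% ± 3.45, 31.3% ± 0.99, and 47.2% ± 9.33 of the sum in control rats and for 11.2% ± 0.99, 13.6% ± 3.47, and 17.3% ± 9.39 in treated rats. *Ccl2* accounted for 0.24% to 0.51% of the sum on average in control rats and for 5.25% to 5.81% in treated rats, and *Ccl7* for 0.14% to 0.32% and 3.64% to 4.58%. The summed TPM itself was 1123 ± 99.7 in control rats and 1367 ± 13.5 in treated rats at Year 0.5, and 1325 ± 31.3 and 1504 ± 48.2 at Year 1. At Year 2 it was 1387 ± 210.2 and 1359 ± 237, and the groups overlapped.

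**Figure D4:**
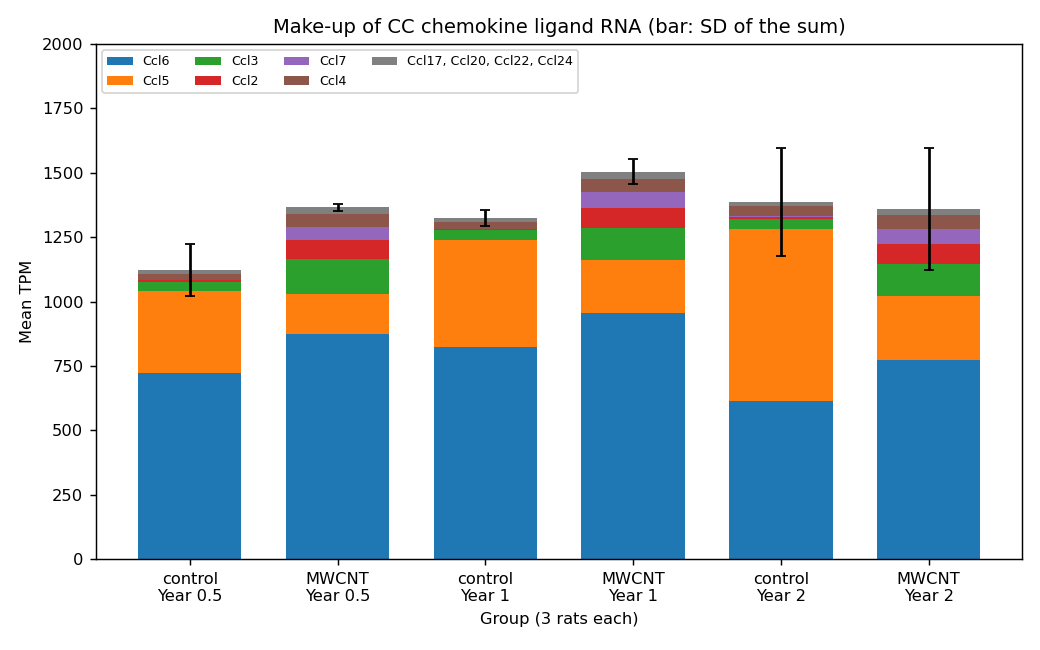
Mean TPM of the ligands in each group of 3 rats, stacked, with a bar for the SD of the sum of all 10. The sum lies between 1123 and 1504 in all groups, while *Ccl5* takes up less and *Ccl3*, *Ccl2*, and *Ccl7* more of it in the treated rats.

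*Ccl17* encodes TARC and *Ccl22* encodes MDC, and both are ligands of Ccr4 that dendritic cells and macrophages make. *Ccl22* had 1.24, 1.82, and 1.40 TPM in control rats and 6.10, 8.45, and 9.81 TPM in treated rats at Year 0.5. At Year 1 these values were 1.41, 1.46, and 2.33 against 5.63, 4.56, and 5.68 TPM, and at Year 2 they were 1.25, 1.14, and 1.68 against 4.20, 3.88, and 3.02 TPM. The treated rats were above the control rats throughout, by a margin that was smallest at Year 2. The log2 fold change was 2.60 ± 0.26 (SE, FDR 0.000131), 1.82 ± 0.25 (FDR 0.000596), and 1.67 ± 0.29 (FDR 0.00142), or 6.05-fold, 3.53-fold, and 3.17-fold. *C5*, of the complement system, at 0.36, and *Daam2*, a formin gene, at 0.38, had the profiles closest to *Ccl22*.

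*Ccl17* was measured with few reads, with 2 to 14 counts in control rats and 11 to 37 in treated rats. Its TPM was 2.98, 1.02, and 3.36 in control rats and 7.55, 11.9, and 10.04 in treated rats at Year 0.5, and 1.54, 2.86, and 5.61 against 9.89, 9.64, and 8.57 at Year 1. At Year 2 the control rats had 5.30, 5.18, and 2.08 TPM and the treated rats 8.07, 4.33, and 8.08, and these groups overlapped. The log2 fold change was 2.12 ± 0.44 (SE, FDR 0.00517) at Year 0.5 and 1.67 ± 0.44 (FDR 0.0144) at Year 1, where the call was lost without control replicate 2 (FDR 0.0572). At Year 2 it was 0.89 ± 0.48 (FDR 0.154), with a 95% interval from -0.20 to 1.98 that includes no change. The change of this response from Year 0.5 to Year 2 was not called by edgeR or DESeq2, and was -1.24 ± 0.76 (SE, FDR 0.492) in DESeq2.

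Of 6 dendritic cell markers, *Xcr1* was upregulated at each time point and the other 5 were not called. Their summed TPM was 80.6 to 88.2 in control and 79.81 to 89.98 in treated rats at Year 0.5, and 65.5 to 71.5 and 48.4 to 60.1 at Year 2. Per 100 TPM of these markers, *Ccl22* ranged from 1.51 to 2.06 TPM in control rats and from 7.29 to 10.9 TPM in treated rats at Year 0.5. At Year 2 the ranges were 1.60 to 2.55 TPM and 6.24 to 7.60 TPM, also without overlap.

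*Ccl20* encodes MIP-3α, the ligand of Ccr6, which epithelial cells make. Its TPM was 5.96, 4.58, and 11.2 in control rats and 6.68, 6.36, and 8.14 in treated rats at Year 0.5, and 4.95, 11.4, and 5.88 against 6.16, 10.8, and 6.75 at Year 1. At Year 2 it was 4.31, 2.87, and 4.84 against 7.55, 5.08, and 8.08 TPM, and the treated rats were above the control rats at that time point alone. The log2 fold change was 0.11 ± 0.33 (SE, FDR 0.823), 0.35 ± 0.36 (FDR 0.465), and 0.997 ± 0.32 (FDR 0.0299, 95% interval 0.26 to 1.73). The Year 2 value lies just under the fold change limit, and DESeq2, at 1.00 (FDR 0.0382), placed it just over. Its call also changed without control replicate 3, to 1.13, and without MWCNT replicate 2, to 1.19. The mean over the 3 time points was 0.48 ± 0.21 (FDR 0.0555).

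*Ccl24* encodes eotaxin-2, a ligand of Ccr3, the receptor of eosinophils. Control rats had 4.11, 4.83, and 3.91 TPM at Year 0.5, 4.84, 4.50, and 3.04 at Year 1, and 4.19, 4.10, and 4.23 at Year 2. Treated rats had 3.21, 2.99, and 2.51 TPM, then 2.55, 4.40, and 3.81, then 3.57, 3.72, and 5.75. The treated rats lay below the control rats at Year 0.5, and the groups overlapped at Year 1 and Year 2. The log2 fold change was -0.41 ± 0.23 (SE, FDR 0.186), 0.05 ± 0.29 (FDR 0.899, negative on the TPM scale at -0.16), and 0.27 ± 0.25 (FDR 0.401). Over the 3 time points the mean was -0.03 ± 0.15 (FDR 0.863), with a 95% interval from -0.34 to 0.28, which leaves out changes of the size seen for the ligands called. Of 5 eosinophil markers, *Epx* and *Prg2* had at most 8 counts in every rat, and *Il5ra* was not tested at any time point. The other markers differed in direction at Year 2, with *Ccr3* downregulated, at -2.04, and *Siglec5* not called, at 0.44. Their sum at Year 2 overlapped, at 21.5 to 24.96 TPM in control rats and 21.5 to 23.6 TPM in treated rats.

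In both treatments the ligands kept much of their order of level. *Ccl6* and *Ccl5* were first and second by mean in 5 groups and the reverse in the Year 2 control rats. In treated rats at Year 0.5 and Year 2, the range of *Ccl5* overlapped with that of *Ccl3*. In control rats, *Ccl3* and *Ccl4* followed, with overlapping ranges at Year 2, and the remaining 6 ligands had mean levels between 1.36 and 7.42 TPM, with most neighbors overlapping. In treated rats, *Ccl2* and *Ccl7* joined *Ccl4* between 49.8 and 79.1 TPM on average, behind *Ccl3*. *Ccl17*, *Ccl20*, *Ccl22*, and *Ccl24* stayed below 10 TPM on average in all 6 groups.

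No ligand had an interaction of treatment and time at an FDR below 0.05 in edgeR, in a model of all 18 rats. Across all 14843 genes tested, 0% passed for Year 0.5 to Year 1, 1.31% for Year 0.5 to Year 2 (0.856% higher and 0.451% lower), and 0.478% for Year 1 to Year 2. At an unadjusted p below 0.05, the ligands were *Ccl2*, *Ccl7*, and *Ccl22* in the first contrast, *Ccl4* and *Ccl22* in the second, and *Ccl2* and *Ccl7* in the third. The share of all genes at an unadjusted p is not given here. Counts at that limit, here and below, therefore have no background and are only descriptive. From Year 1 to Year 2 the difference between treatments decreased by 1.12 ± 0.39 (SE, FDR 0.165) for *Ccl2* and by 1.21 ± 0.37 (FDR 0.12) for *Ccl7* on the log2 scale, and DESeq2 called *Ccl7* (FDR 0.0381), with *Ccl2* at an FDR of 0.0504. By edgeR, the different folds at the 3 time points were thus not shown to differ.

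Within a treatment, 1 ligand changed with time in each. *Ccl22* fell in the MWCNT-treated rats from Year 0.5 to Year 2, with a log2 fold change of -1.05 ± 0.23 (SE, FDR 0.00554), where 2.34% of all genes passed. It did not reach the fold change limit without MWCNT Year 0.5 replicate 3 (-0.92) or MWCNT Year 2 replicate 3 (-0.91). *Ccl7* rose in the control rats from Year 1 to Year 2, by 1.28 ± 0.33 (FDR 0.0266), where 0.499% of genes passed. That call was lost without control Year 1 replicate 2 (FDR 0.14) or replicate 3 (FDR 0.113), and without control Year 2 replicate 1 (FDR 0.136) or replicate 2 (FDR 0.0521). In the same contrast *Ccl2* had a log2 fold change of 1.11 ± 0.34 (FDR 0.0525). No ligand was called in the other 4 contrasts of time by edgeR, DESeq2, or limma. In each, 2 to 4 had an unadjusted p below 0.05, again without a share of all genes at that limit. In these 4 contrasts, the genes that passed both the FDR and the fold change limit were 0.0472% and 0% from Year 0.5 to Year 1 in treated and control rats. They were 0.903% from Year 1 to Year 2 in treated rats, and 0.633% from Year 0.5 to Year 2 in control rats.

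Of 11 other CC ligands, 10 were in the tables and 7, 7, and 8 passed the filter on low counts at the 3 time points. At Year 0.5, 3 were upregulated, at Year 1, 3 upregulated and 1 downregulated, and at Year 2, 3 upregulated and 2 downregulated. *Ccl9*, a rodent ligand of Ccr1, had 11.3 to 31.5 TPM in control rats and 279 to 363 TPM in treated rats. Its log2 fold change was 4.21 ± 0.24 (SE, FDR 7.08e-06), 3.87 ± 0.20 (FDR 3.22e-06), and 4.45 ± 0.19 (FDR 5.17e-07), similar in size to *Ccl2* and *Ccl7* and at a higher level. *Ccl12*, a monocyte chemoattractant, had 0 to 6 counts in control rats and 14 to 42 in treated rats, with log2 fold changes of 2.99, 3.92, and 2.90. *Ccl1*, a ligand of Ccr8, had at most 4 counts in any control rat and 25 to 75 counts in treated rats.

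The downregulated ligands were *Ccl11* and *Ccl21*. *Ccl11*, which encodes eotaxin-1, had 4.30, 4.47, and 3.04 TPM in control rats and 0.63, 0.66, and 0.47 TPM in treated rats at Year 2, from only 4 to 6 counts per treated rat. Its log2 fold change was -0.18 ± 0.24 (SE, FDR 0.599), -1.24 ± 0.26 (FDR 0.00557), and -2.51 ± 0.39 (FDR 0.000687). *Ccl21*, which draws cells bearing Ccr7 to lymphatic vessels and lymph nodes, had 354 to 404 TPM in control rats and 140.2 to 176 TPM in treated rats at Year 2, a log2 fold change of -1.08 ± 0.10 (FDR 2.61e-05). Its treated rats were also below the control rats earlier, without a call. The TPM was 316.5 to 375 against 158 to 219 at Year 0.5, and 332 to 344 against 193 to 202 at Year 1.

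On chromosome 10, *Ccl2* and *Ccl7* lie next to each other and were both upregulated, but some other neighbors differed in direction. *Ccl11* lies 9961 bases after *Ccl7* and 37199 bases before *Ccl12*, and at Year 2 it was lower in the treated rats while both neighbors were higher. In the other group, *Ccl9* lies 39108 bases from *Ccl5* and 8814 bases from *Ccl6*, and at Year 2 their log2 fold changes were 4.45, -1.21, and 0.54. How reads that match several of these related genes were counted is not given in the sources used here.

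**Figure D5:**
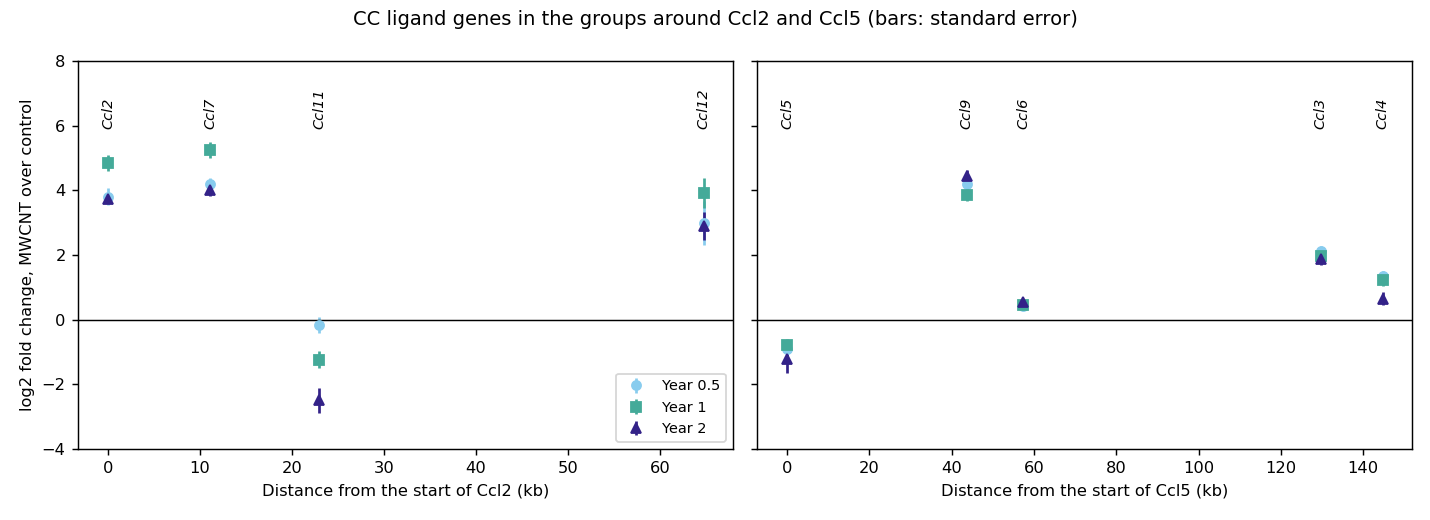
log2 fold change (MWCNT over control, bars for the standard error) of the CC ligand genes around *Ccl2* (left) and *Ccl5* (right), against the distance in kb of each gene's start from that of the first gene, with circles, squares, and triangles for Years 0.5, 1, and 2. *Ccl11*, at -2.51 at Year 2, lies between *Ccl7* at 4.02 and *Ccl12* at 2.90, and *Ccl9*, at 4.45, lies between *Ccl5* at -1.21 and *Ccl6* at 0.54.

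Among 8 receptors of CC chemokines followed in the tables, 1 was upregulated at Year 0.5, none was called at Year 1, and 1 was upregulated and 1 was downregulated at Year 2, of 8, 8, and 6 tested. *Ccr1*, a receptor of *Ccl3* and *Ccl5*, was upregulated at Year 2, at 1.29 ± 0.20 (SE, FDR 0.000594). *Ccr8*, the receptor of *Ccl1*, was upregulated at Year 0.5, at 2.76 ± 0.46 (FDR 0.00168), from 1 to 3 counts in control rats and 15 to 20 in treated rats. Its treated rats also lay above the control rats later on TPM. *Ccr8* was not called at Year 1 and had too few counts for the test at Year 2. The counts were 5 to 7 against 11 to 13 at Year 1, and 1 to 2 against 4 to 14 at Year 2. *Ccr3*, the receptor of *Ccl11* and *Ccl24*, was downregulated at Year 2, at -2.04 ± 0.27 (FDR 0.000279), with 3.18 to 4.05 TPM in control rats and 0.61 to 0.97 TPM in treated rats. The receptors of *Ccl17* and *Ccl22* (*Ccr4*) and of *Ccl20* (*Ccr6*) were not called between treatments at any time point. At Year 1, 5 of the 8 receptors had an unadjusted p below 0.05 in edgeR, 2 higher and 3 lower in treated rats.

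Atypical chemokine receptors bind ligands without G protein signaling, and some remove chemokines from tissue. Of the 4 atypical or related receptors followed, *Ackr2*, *Ackr3*, *Ackr4*, and *Ccrl2*, none was upregulated, and 1, 2, and 1 were downregulated at the 3 time points. *Ackr3* and *Ccrl2* were not called. On TPM their treated rats lay below the control rats at each time point, as did 40.7%, 46.8%, and 45.7% of all genes. *Ackr4*, the scavenger of *Ccl19* and *Ccl21*, had a log2 fold change of -1.12 ± 0.20 (SE, FDR 0.00264), -1.43 ± 0.22 (FDR 0.00104), and -2.64 ± 0.18 (FDR 5.51e-06). The Year 0.5 call fell short of the fold change limit without MWCNT replicate 2, at -0.88. *Ackr2*, which takes up many inflammatory CC ligands, *Ccl2* and *Ccl3* among them, was called at Year 1, at -1.35 ± 0.40 (FDR 0.0252). That call was lost without control replicate 2 (FDR 0.0971) or replicate 3 (FDR 0.0775) and without MWCNT replicate 1 (FDR 0.0706) or replicate 2 (FDR 0.0762).

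Of 9 cytokines known to induce CC chemokines, 4, 5, and 5 had enough counts for the test at the 3 time points, and *Il4*, *Il13*, *Il17a*, and *Ifng* had at most 5 counts in any rat. None was upregulated in edgeR, and 1 had an unadjusted p below 0.05 in that direction, at Year 1. For *Tnf*, counts alternated between rats with those of another entry, LOC103694380, as described under Other observations. With both entries added, a sum formed after the counts were seen, the log2 fold change was 0.86, 1.16, and 0.68. The FDR values were 0.046, 0.00329, and 0.0113, and the Year 1 value passed both limits. *Il33*, an alarmin of epithelial and endothelial cells, was downregulated at Year 2, at a log2 fold change of -1.28 ± 0.09 (SE, FDR 7.05e-06). It then had 324 to 368 TPM in control rats and 105 to 135 TPM in treated rats. Its treated rats lay below the control rats at the earlier time points too, without a call. The TPM was 307 to 406.5 against 168 to 214 at Year 0.5, and 311 to 357.5 against 166 to 202 at Year 1. *Il1b* had log2 fold changes of 0.23, 0.31, and -0.22, none of which passed the test.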

How the data were processed

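RNA-seq of lung tissue from 18 rats was analysed. Per the submitters' notes and the study's methods, the authors mapped the reads to Rnor_6.0 (rn6) with CLC Genomics Workbench. The handling of strand and of reads mapping to several places is not given in the sources used here. The authors deposited raw counts per gene and TPM for each rat, and both were used. Deposited RPKM, TMM-adjusted CPM, and the authors' comparison columns (fold changes and p-values) were not used. Groups were taken from the labels. The count analysis used edgeR 4.0.16 under R 4.3.3: filterByExpr (minimum count 10, minimum total 15), TMM, and the quasi-likelihood test, with Benjamini-Hochberg adjustment over all genes tested. The 6 rats of each time point were compared, and time and interactions were tested in one model of 18 rats. With 3 rats per group, p-values rest on the spread among these rats. Alternatives used limma 3.58.1 on log2(TPM + 1) and log2(TPM + 0.1) and DESeq2 1.42.0. The scripts were tested on simulated data.

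The 10 ligands, the gene lists, and the tests were chosen with earlier results of these data known. Named genes are the 10 ligands, the genes of the other lists called at 1 or more time points (up to 6 a list), and, for each ligand called at all 3 time points, the 2 genes outside the lists with the smallest root mean square difference of centered log2 CPM (prior count 2). *Ccr4*, *Ccr6*, *Ackr3*, *Ccrl2*, *Il1b*, *Tnf*, LOC103694380, *Cx3cl1*, the low-count cytokines, and the markers named were added after their values were seen. *Ccl8*, *Ccr2*, and *Ackr1* were not analysed here, and 1 further gene each of the receptor and B cell lists is not reported here. Replicate numbers recur between treatments, but each rat was a separate animal.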

Additional observations from a re-analysis of the deposited data

Results flagged for a closer look

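For 3 genes of the neighboring lists the response to MWCNT differed between Year 0.5 and Year 2 by the test of the interaction in one model of all 18 rats. The change in log2 fold change was -2.33 ± 0.42 (SE, FDR 0.013) for *Ccl11*, -2.32 ± 0.35 (FDR 0.00531) for *Ccr3*, and -1.52 ± 0.35 (FDR 0.0396) for *Ackr4*. *Ccl11* fell from Year 0.5 to Year 2 by 3.45 ± 0.32 (FDR 1.11e-05) in the treated rats and by 1.12 ± 0.26 (FDR 0.0181) in the control rats. The call in control rats was lost without control Year 0.5 replicate 1 (-0.90, FDR 0.101), control Year 2 replicate 2 (FDR 0.0543), or control Year 2 replicate 3 (-0.96), with only the 6 rats compared (FDR 0.076), and with limma on log2(TPM + 1) (-0.955). For *Ccl11* the treated Year 2 rats had 4 to 6 counts each, so the size of the change is poorly measured at this depth. The call for *Ackr4* was lost with 11 of the 18 rats left out in turn, with FDR values up to 0.119, and with limma on log2(TPM + 1), at -1.22 (FDR 0.0817). None of the 10 ligands met this criterion. Groups of 3 rats are too small for the check on outlying rats.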

How the results depend on the processing

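The numbers of ligands called between treatments, 6, 6, and 5 at the 3 time points, stayed within 1.5 times under every alternative except the FDR alone, which gave 8 at Year 2. Interactions from Year 1 to Year 2 were 0, and 1 with DESeq2. From Year 1 to Year 2 in control rats, 1 ligand was called in the main analysis, 2 with library size only, 2 with DESeq2, 2 with the FDR alone, 0 with limma on log2(TPM + 1), 0 with only the 6 rats compared, and 0 to 2 with each rat left out. In treated rats, the count from Year 0.5 to Year 2 was 1, against 0 with limma on log2(TPM + 1) and 0 to 2 with rats left out, and from Year 1 to Year 2 it was 0, against 1 with the FDR alone. In control rats from Year 0.5 to Year 2 it was 0, against 1 with the FDR alone and 0 to 2 with rats left out. The direction turned for *Ccl24* at Year 1 (-0.082 with library size only, -0.16 and -0.20 with limma at pseudocounts of 1 and 0.1, and -0.18 to 0.26 with rats left out) and, with rats left out, for *Ccl20* at Year 0.5 (-0.13 to 0.55) and Year 1 (-0.0024 to 0.78) and for *Ccl24* in the mean of the 3 time points (-0.11 to 0.038). None of these was called in either direction, and for the alternatives other than leaving out rats the cause was not tested. *Ccl5* was called at Year 0.5 with library size only (-1.03) and with limma (-1.04), at Year 1 with limma (-1.05), and at Year 0.5 without control replicate 3 (-1.07). *Ccl22* at Year 2 was just under the limit with limma at a pseudocount of 1 (0.996).

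The replicate numbers pair no rats: deviations of same-numbered rats correlated at 0.007 on average, and 2 of 9 treated rats correlated best with the control rat of their own number. With the replicate block, 5 ligands were called at Year 2, all upregulated, with *Ccl20* at 1.00 (FDR 0.0312) in place of *Ccl5* at -1.37 (FDR 0.0778). A filter of at least 10 counts in every rat left *Ccl17* untested at each time point and *Ccl7* at Year 1. Depth limits *Ccl17*, *Ccl12*, and *Ccl1* most, whose control rats had at most 14 counts.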

Other observations

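The counts of *Tnf*, a main inducer of CC chemokines, did not follow treatment in the tables. Of the 18 rats, each had at most 1 count either under *Tnf* (chr20:4855829-4858447) or under the entry LOC103694380 (chr20:5189390-5192000), and 34 to 132 counts under the other. The switch occurred in both treatments and within groups. The treated Year 1 rats, for example, had 0, 97, and 104 counts of *Tnf* and 112, 0, and 0 counts of LOC103694380. The sources used here do not pair these names, and the cause was not tested.

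Added together, the counts were 51, 63, and 39 in control rats and 110, 133, and 61 in treated rats at Year 0.5, 48, 34, and 66 against 112, 97, and 104 at Year 1, and 61, 75, and 56 against 87, 108, and 114 at Year 2. The treated rats were above the control rats at Year 1 and Year 2. With the sum in place of *Tnf*, edgeR gave a log2 fold change of 0.86 ± 0.29 (SE, FDR 0.046), 1.16 ± 0.22 (FDR 0.00329), and 0.68 ± 0.18 (FDR 0.0113), of which the Year 1 value passed both limits. With *Tnf* alone it was not tested at Year 0.5 for low counts and had FDR values of 0.386 and 0.346 at Year 1 and Year 2. The sum was formed after the counts were seen. No such switch was seen for the 10 ligands, whose lowest count in any rat was 2, for *Ccl17*.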
